A study of Homo sapiens with 60 samples.

Results

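Okbyeongpung-san is a herbal decoction of Korean medicine, known in China as Yu Ping Feng San, made from Astragali Radix, Atractylodis Rhizoma and Saposhnikoviae Radix. The libraries described here are the 9 of this decoction among 60 in the series, 3 at each of 500, 100 and 20 µg/mL. They were identified by their labels, and the comparison was chosen with earlier results of these data known. In all 9, A549 cells, an established human lung adenocarcinoma line of epithelial origin kept in RPMI medium with serum, were exposed for 24 h to a hot-water extract. The 500 libraries were compared with the 20 libraries, and the 100 libraries were the step between. No vehicle library entered a contrast, so each change is relative to cells that also received the extract. The description of the series states that extracts that inhibited the cells below 500 µg/mL were given at lower, adjusted concentrations. The labels of this decoction print 500, 100 and 20. A549 is a single cancer line and stands for no other lung cell. Whether the 3 libraries of a dose are separate cultures is not stated in the labels; the spread that p-values rest on may therefore be technical.

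Airway epithelial cells carry receptors for microbial products and for the cytokines interleukin-1, tumour necrosis factor and interleukin-17. Their signals converge on NF-kB, a family of transcription factors held in the cytoplasm by inhibitor proteins until a kinase complex releases them. NF-kB then drives the genes of CXCL chemokines, which draw neutrophils through the receptors CXCR1 and CXCR2, of CCL2, which draws monocytes, and of complement proteins. It also drives its own brakes, such as TNFAIP3, which end the signal.

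In 500 against 20, 17 of 17256 genes tested rose and 0 fell (0.0985% called; edgeR quasi-likelihood test, Benjamini-Hochberg adjusted p under 0.05). At an unadjusted p under 0.05, 364 genes were higher (2.11%) and 299 lower (1.73%), and DESeq2 called 20 higher and 1 lower. With no filter on low counts, edgeR called 45 higher and 48 lower. All 5 tested CXCL chemokines that bind the neutrophil receptors were among the 17, with CCL2, IL32, the complement genes C3 and CFB, the signalling gene IRAK2, and the feedback genes TNFAIP3 and ZC3H12A. Also among them were SOD2, C1QTNF1, RHBDF2 and PDZK1IP1. Of the 17, 14 stood in the lists of inflammatory genes, which were chosen with earlier results of these data known, and 3 stood in no list. 5 rose by 2-fold or more. In 9 of the 17 the call held whichever of the 6 libraries was left out. The number called was 11 without 20 replicate 1, 10 without 20 replicate 2 and 11 without 500 replicate 3, and 13 or 14 without each of the other three.

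**Figure D1:**
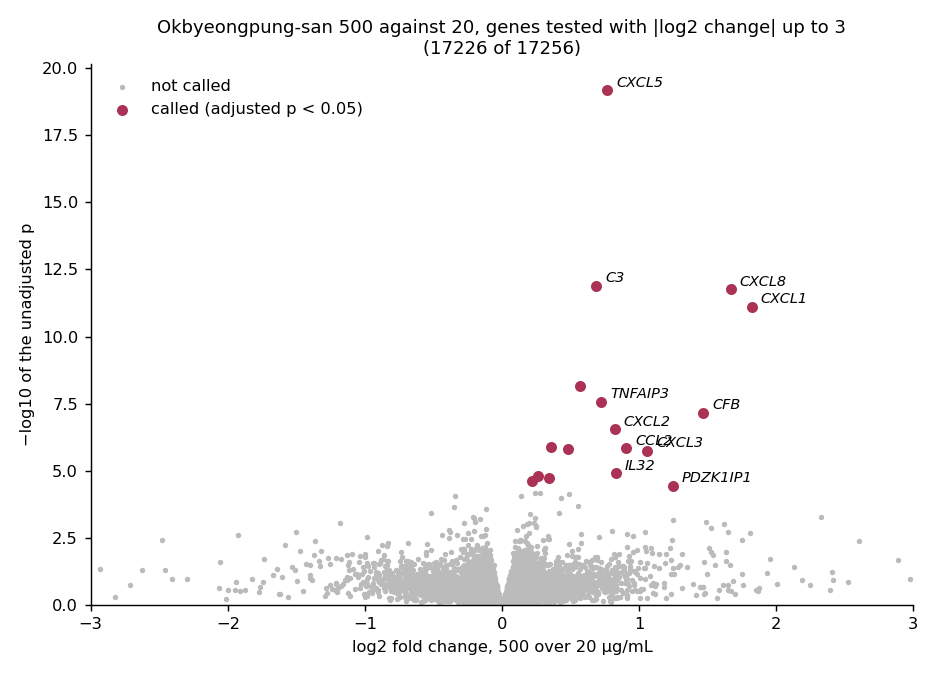
Log2 fold change of 500 over 20 µg/mL (x axis) against −log10 of the unadjusted p (y axis) for 17226 of the 17256 genes tested, those with a log2 change of at most 3 in size. The 17 called genes, in red, all lie to the right of 0, and CXCL5 has the smallest p.

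The 5 called CXCL genes lie in one cluster on chromosome 4, at chr4:73740506-73743716 (CXCL8), chr4:73869393-73871242 (CXCL1), chr4:73995642-73998779 (CXCL5), chr4:74036589-74038807 (CXCL3) and chr4:74097035-74099293 (CXCL2; GENCODE 29, GRCh38). The stretches of 80 bases below come from the RefSeq promoter windows of build GRCh38.p14 and are shown because the 5 chemokine genes hold the same 9 letters there, GGAATTTCC, the core of a known NF-kB site. Each is printed 5′ to 3′ on the strand of the gene. The capitals mark those 9 letters and, in TNFAIP3, 2 matches to the longer NF-kB consensus.
CXCL1: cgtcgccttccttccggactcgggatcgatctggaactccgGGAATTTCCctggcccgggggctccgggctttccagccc
CXCL2: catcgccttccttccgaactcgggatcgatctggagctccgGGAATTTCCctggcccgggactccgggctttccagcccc
CXCL3: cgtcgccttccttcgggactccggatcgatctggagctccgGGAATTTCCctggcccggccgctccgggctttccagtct
CXCL5: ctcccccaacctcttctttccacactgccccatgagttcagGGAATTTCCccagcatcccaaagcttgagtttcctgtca
CXCL8: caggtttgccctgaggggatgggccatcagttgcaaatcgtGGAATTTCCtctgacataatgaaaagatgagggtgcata
TNFAIP3: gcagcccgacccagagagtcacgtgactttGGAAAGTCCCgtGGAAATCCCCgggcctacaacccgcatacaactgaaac

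The stretches lie at chr4:73869274-73869353 (CXCL1, plus strand), chr4:74099234-74099313 (CXCL2, minus), chr4:74038729-74038808 (CXCL3, minus), chr4:73998729-73998808 (CXCL5, minus), chr4:73740437-73740516 (CXCL8, plus) and chr6:137867162-137867241 (TNFAIP3, plus). The capitals begin 78, 77, 78, 90, 91 and 67 bases before the RefSeq start of CXCL1, CXCL2, CXCL3, CXCL5, CXCL8 and TNFAIP3. CXCL1 and CXCL3 share 73 of these 80 bases and CXCL1 and CXCL2 share 66, compared without gaps, whereas CXCL5 and CXCL8 share 23. A window of 300 bases, 250 before and 50 after the start, was at hand for 13 of the 17 called genes and for 11782 genes tested. GGAATTTCC on either strand was found in 5 of the 13 (38.5%) and in 0.594% of the 11782. The NF-kB consensus of 10 letters, which can overlap GGAATTTCC, was matched on either strand in 8 of the 13 (61.5%) and in 17.0% of all: CXCL1, CXCL2, CXCL3, CXCL5, CFB, PDZK1IP1, IL32 and TNFAIP3. These counts describe letters in a window, not binding. The stretches were chosen because the 5 chemokine genes hold GGAATTTCC, and the 5 matches among the 13 are those same genes. That share therefore follows from the choice and cannot test whether the letters are more common in called genes. CXCL1, CXCL2, CXCL3 and CXCL5 are also among the 8 consensus matches. The share of 61.5% is therefore no separate test. CXCL1, CXCL2 and CXCL3 are close copies here, so their matches in either count are not independent.

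The 9 libraries held 19294196 to 27268204 counts, and their replicates differed by more than sampling noise (chi-square per degree of freedom 2.07 to 12.1). Mitochondrially encoded genes took 13.8 to 16.2% of the counts in 8 libraries and 18.4% in 20 replicate 3. That library stood apart on the second principal component (−35.1, 14.1% of the variance) and 100 replicate 2 on the first (41.0, 17.7%). With 20 replicate 3 left out, 13 genes rose and ANKRD1 fell, and the counts were the same with both of these libraries left out. The A549 and epithelial markers summed to 12796 to 14270 CPM (rounded counts per 1000000 counts of a library), with SLC34A2 alone under 1 CPM in all 9. Of 7 leukocyte markers 5 were under 1 CPM in every library, CD3E and FCGR3A at 0, and the list summed to 3.15 to 4.72 CPM at 20 and 3.95 to 4.27 at 500. All 5 endothelial markers and 5 of 7 fibroblast markers were under 1 CPM, and the fibroblast list summed to 34.3 to 39.6 CPM at 20 and 35.3 to 39.4 at 500. In bulk libraries a change in the share of cells that express a gene and a change in RNA per cell cannot be told apart.

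The neutrophil chemokines rose in all 5 tested members, with a median log2 change of 1.06, against −0.00075 over all genes tested. The sixth of the list, CXCL6, had 0 counts in all 9 libraries and was not tested. CXCL1, the marker chemokine of the comparison, stood at 1.76, 1.19 and 1.80 CPM in the 3 libraries at 20 and at 6.16, 5.32 and 5.73 at 500. All 3 libraries at 500 were above all 3 at 20, and the log2 change was 1.82 ± 0.20 (SE; 3.53-fold; adjusted p = 3.29e-08). CXCL8, also called interleukin-8, was at 1.52, 1.38 and 1.56 CPM at 20 and 4.53, 5.15 and 4.78 at 500. Its libraries were tightly grouped at both doses, and it rose by 1.67 ± 0.17 (3.18-fold; adjusted p = 1.01e-08). These 2 genes rested on few reads, 25 to 43 at 20 and 128 to 146 at 500 for CXCL1 and 29 to 37 at 20 and 103 to 124 at 500 for CXCL8 in rounded counts per library, yet neither call was lost under any alternative run.

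CXCL5 was the most abundant of the group. Per kilobase of exon its mean was 23.2 CPM at 20 and 40.1 at 500, against 1.22 and 4.42 for CXCL1, 1.95 and 3.53 for CXCL2, 0.654 and 2.12 for CXCL8, and 0.517 and 1.10 for CXCL3. Its libraries read 57.2, 60.9 and 58.4 CPM at 20 and 99.1, 103 and 103 at 500. The change was smaller than that of CXCL1 and better defined, at 0.77 ± 0.05 (1.70-fold; adjusted p = 1.13e-15). CXCL2 had 3.36, 2.72 and 2.70 CPM at 20 and 5.46, 5.52 and 4.90 at 500, without overlap, a log2 change of 0.82 ± 0.14 (adjusted p = 0.000618). CXCL3 had 1.35, 0.953 and 1.14 CPM at 20 and 2.73, 1.95 and 2.67 at 500, a change of 1.06 ± 0.19 (adjusted p = 0.00255). The call of CXCL3 was lost when 1 library was left out, with adjusted p = 0.0954 without 20 replicate 2 and 0.0524 without 500 replicate 3, and in 3 fits of fewer groups (0.0507 to 0.164). CXCL1, CXCL2 and CXCL3 are close copies of each other, so reads can be split between them by the estimate, and their separate values are uncertain to that extent. All 9 deposited values of CXCL1 were whole numbers, as were 8 of 9 for CXCL2 and for CXCL3.

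Among the other chemokines and cytokines, 2 of the 8 tested members rose and 0 fell, and the median log2 change was 0.07. CCL2, the monocyte chemokine, went from 4.75, 5.57 and 5.44 CPM at 20 to 9.95, 9.30 and 10.7 at 500. Every library at 500 was well above every one at 20, and the change was 0.91 ± 0.16 (1.87-fold; adjusted p = 0.0024). Without 20 replicate 1 its adjusted p was 0.0775, the one loss of this call among the alternatives. IL32, a cytokine of human epithelium that is itself raised by inflammatory signals, went from 3.93, 3.19 and 3.60 to 7.26, 5.98 and 6.24 CPM, a change of 0.83 ± 0.17 (adjusted p = 0.0169). This call was less firm, with adjusted p = 0.172 without 500 replicate 1, 0.0581 without 20 replicate 1, 0.234 without 20 replicate 2, 0.0596 without 500 replicate 3 and 0.0776 without 20 replicate 3.

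The other 6 tested members did not pass: CSF1, a growth factor of macrophages, was at 54.4 ± 1.91 CPM (SD, n = 3) at 20 and 61.0 ± 1.82 at 500, with a log2 change of 0.14 ± 0.06 (adjusted p = 1). LIF, IL11, IL18 and CXCL16 had changes of 0.07 ± 0.04, -0.03 ± 0.08, -0.08 ± 0.08 and 0.08 ± 0.08, and CCL28, at under 1 CPM on average, had -0.91 ± 0.55. The remaining 15 were too low to test. TNF, CSF2 and TSLP had 0 counts in all 9 libraries. IL6 reached at most 0.0953 CPM, IL1B 0.166, IL1A 0.189, CCL20 0.415 and CXCL10 0.0410, so a change in these cytokines was not detectable at this depth.

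**Figure D2:**
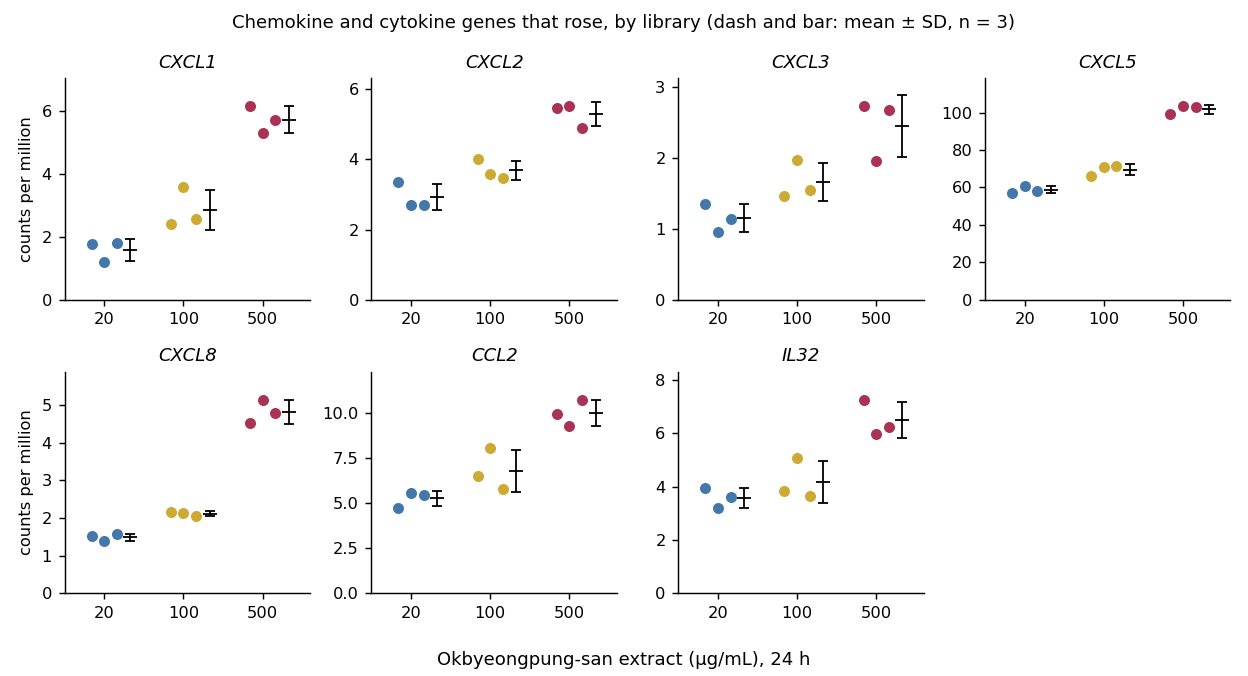
CPM (y axis, each panel from 0) of the 7 chemokine and cytokine genes that rose, in the 3 libraries at 20, 100 and 500 µg/mL (x axis); points are libraries, and the dash and bar are the mean ± SD. In all 7 panels the 3 libraries at 500 lie above the 3 at 20, and the 100 mean lies between.

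Of the receptors and signalling proteins upstream of NF-kB, 1 of 26 tested members rose and 0 fell, with a median log2 change of 0.03. The one was IRAK2, a partner of MyD88 that carries the signal of Toll-like and interleukin-1 receptors. It stood at 7.62, 7.48 and 7.90 CPM at 20 and 11.7, 11.3 and 9.81 at 500, a change of 0.48 ± 0.09 (1.40-fold; adjusted p = 0.0024). The lowest library at 500 was still above the highest at 20, and the adjusted p was 0.0566 without 500 replicate 1 and 0.0503 without 20 replicate 2, and 0.0542 and 0.141 in 2 fits of fewer groups. IRAK3, an inhibitory relative, had a larger estimate of 1.09 ± 0.41 from 0.236 ± 0.0795 CPM at 20 and 0.523 ± 0.0755 at 500, and did not pass (adjusted p = 1). MAP3K8, a kinase of this pathway, was at 20.4 ± 2.06 and 23.5 ± 0.882 CPM (change 0.18 ± 0.06; adjusted p = 0.696). The receptors TNFRSF1A (-0.04 ± 0.05), IL1R1 (0.09 ± 0.04) and IL17RA (0.12 ± 0.07) did not pass, nor did the adaptor MYD88 (0.04 ± 0.05) or the kinase subunits IKBKB (0.02 ± 0.07) and CHUK (-0.0042 ± 0.07). TLR2, TLR4 and LY96, parts of the bacterial lipid receptors, were too low to test, at no more than 0.0415, 0.132 and 0.0943 CPM.

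None of the 5 NF-kB subunits passed. In 3 of them all libraries at 500 were above all at 20 (60%, against 8.65% of all genes tested). NFKB2, the p100 precursor and a known target of the pathway, came closest, at 48.8, 49.2 and 44.7 CPM at 20 and 54.9, 62.3 and 59.1 at 500, without overlap, and a change of 0.28 ± 0.06 (adjusted p = 0.0639). DESeq2 called it, as did 4 other alternatives of 15. RELB was at 13.8 ± 2.27 and 16.5 ± 0.649 CPM (change 0.23 ± 0.12; adjusted p = 1), NFKB1 changed by 0.08 and RELA by 0.01 in log2, neither past the threshold.

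Among the inhibitors and feedback genes, 2 of 12 rose and 0 fell (median log2 change 0.06). TNFAIP3, or A20, an enzyme that edits ubiquitin chains and stops signalling to NF-kB, had 6.68, 6.38 and 5.82 CPM at 20 and 10.3, 11.0 and 10.5 at 500. The doses did not overlap, and it rose by 0.72 ± 0.11 (1.65-fold; adjusted p = 7.75e-05). ZC3H12A, or regnase-1, a nuclease that degrades messenger RNAs of cytokines, had 15.1, 16.6 and 17.0 CPM at 20 and 21.4, 20.9 and 20.4 at 500, a smaller rise of 0.34 ± 0.07 (1.27-fold; adjusted p = 0.0216). Its call depended on single libraries, with adjusted p = 0.157 without 500 replicate 1, 0.543 without 20 replicate 1, 0.0929 without 500 replicate 2, 0.107 without 20 replicate 2 and 0.0786 without 500 replicate 3. The classic inhibitor NFKBIA was at 52.8 ± 4.66 and 59.1 ± 2.68 CPM with a change of 0.14 ± 0.07 (adjusted p = 1), NFKBIZ had 0.26 ± 0.09 (1) and TNIP1 0.18 ± 0.06 (0.927). Of the 9 survival targets SOD2 rose and 8 did not pass. BIRC3, an inhibitor of cell death, was at 30.1 ± 1.10 and 36.1 ± 1.72 CPM, with 0.24 ± 0.06 (adjusted p = 0.308).

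Complement genes encode a cascade of serum proteins that tags and lyses microbes, and epithelium makes several of them. In this list 2 of 16 tested members rose and 0 fell, and the median was 0.01. At an unadjusted p under 0.05, 3 were higher (18.8%, against 2.11% of all genes tested) and 1 lower (6.25%, against 1.73%). In 8 of the 16 the change was negative. C3, the central protein of the cascade, stood at 40.8, 37.9 and 36.8 CPM at 20 and 61.6, 64.4 and 63.2 at 500. The groups were far apart for their spread, with a change of 0.69 ± 0.07 (1.61-fold; adjusted p = 1.01e-08). CFB, factor B, which binds activated C3 to form the enzyme of the alternative pathway, was rare, at 0.696, 1.10 and 0.568 CPM at 20 and 2.07, 2.49 and 2.08 at 500. Its change was 1.47 ± 0.23 (2.77-fold; adjusted p = 0.000174), from rounded counts of 12 to 23 at 20 and 47 to 60 at 500. In GENCODE 29 CFB (chr6:31945650-31952084) overlaps C2 on the same strand, which averaged 0.187 CPM, and C3 (chr19:6677704-6730562) overlaps GPR108 on the same strand, which averaged 22.9 CPM, so reads in shared stretches could be assigned to either. C1R was at 26.6 ± 1.16 and 30.8 ± 1.40 CPM (change 0.19 ± 0.05; adjusted p = 0.385), and C1S (0.07 ± 0.06), C5 (0.07 ± 0.05) and the surface regulators CD46 (-0.03 ± 0.07), CD55 (-0.07 ± 0.08) and CD59 (-0.04 ± 0.07) did not pass. C1QTNF1, a secreted relative of C1q and not a complement component, was in no list and rose from 8.15, 8.00 and 8.09 to 12.3, 13.2 and 11.1 CPM, by 0.57 ± 0.08 (adjusted p = 2.49e-05).

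Of the adhesion, protease and prostaglandin genes 1 of 8 tested members rose and 0 fell, and the members given here did not pass. ICAM1, the ligand of leukocyte integrins, had 0.942, 0.858 and 0.426 CPM at 20 and 1.94, 1.37 and 1.41 at 500. Its doses did not overlap, and the change of 1.04 ± 0.31 did not pass (adjusted p = 0.613). MMP7, a secreted protease, had 4.51, 4.53 and 4.54 CPM at 20 and 5.85, 6.64 and 6.82 at 500, with 0.49 ± 0.11 (adjusted p = 0.0665). PTGS2 (-0.02 ± 0.08), PLAU (0.01 ± 0.10) and PLAUR (-0.07 ± 0.07) did not pass.

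SOD2, RHBDF2 and PDZK1IP1 also rose, and each call was lost when any of several libraries was left out. SOD2, the superoxide dismutase of mitochondria, had 66.4, 67.2 and 65.7 CPM at 20 and 78.5, 83.3 and 81.2 at 500, a rise of 0.26 ± 0.05 (1.20-fold; adjusted p = 0.0193). Without single libraries the adjusted p was 0.229 without 20 replicate 1, 0.186 without 500 replicate 2, 0.113 without 20 replicate 2, 0.149 without 500 replicate 3 and 0.0776 without 20 replicate 3. The gene overlaps another SOD2 entry and the pseudogene HNRNPH1P1 on the same strand, and WTAP on the other strand. All 9 of its deposited values were not whole numbers, so part of its reads was shared out by the estimate. Which entry shared them was not tested. RHBDF2, a membrane protein that brings the protease releasing tumour necrosis factor to the surface, had 43.8, 45.5 and 42.5 CPM at 20 and 51.8, 51.1 and 53.3 at 500, a rise of 0.22 ± 0.05 (adjusted p = 0.0258). Its adjusted p was 0.104 without 500 replicate 1, 0.303 without 20 replicate 1, 0.0639 without 20 replicate 2, 0.333 without 500 replicate 3 and 0.162 without 20 replicate 3. PDZK1IP1, a small membrane protein, had 0.819, 0.905 and 0.852 CPM at 20 and 2.24, 1.87 and 2.12 at 500, a rise of 1.25 ± 0.27 (adjusted p = 0.0364), and no call without any 1 of the 6 libraries (adjusted p from 0.0666 to 0.359).

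**Figure D3:**
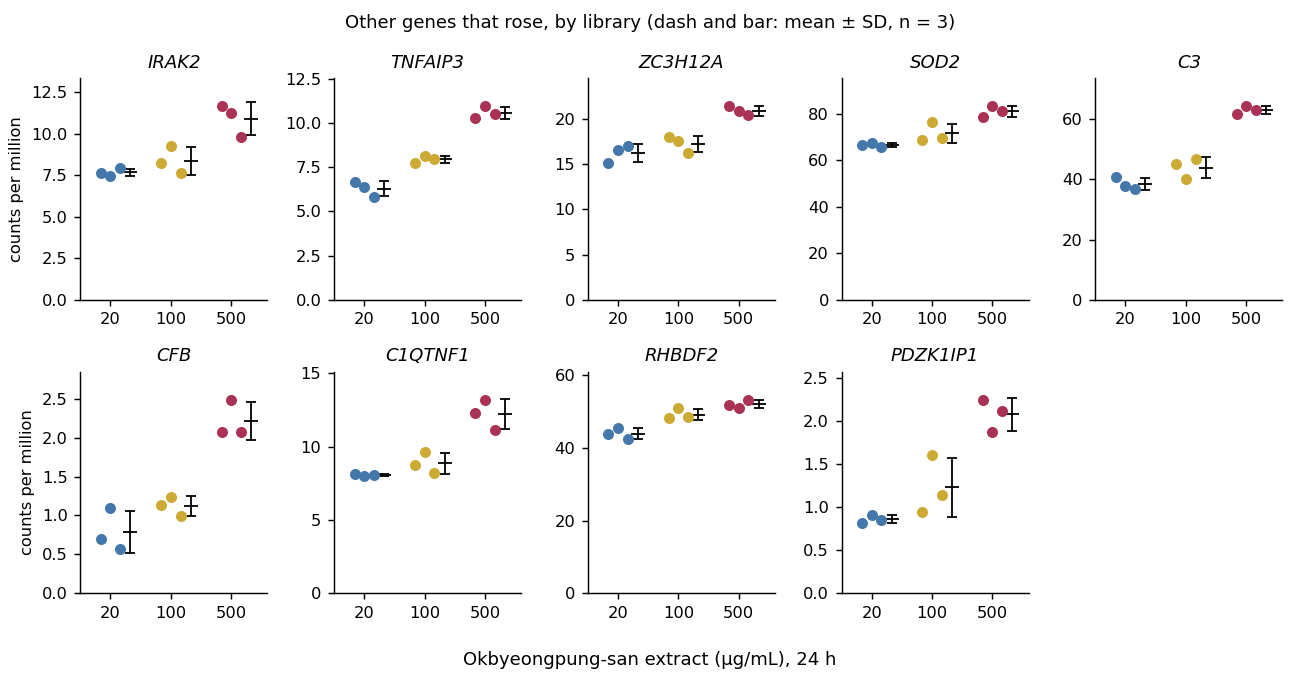
CPM (y axis, each panel from 0) of 9 other genes that rose, in the 3 libraries at 20, 100 and 500 µg/mL (x axis); points are libraries, and the dash and bar are the mean ± SD. In every panel the 3 libraries at 500 lie above the 3 at 20; C3 and SOD2 are the genes with means above 60 CPM at 500.

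Taking the 13 lists of inflammatory genes as a whole, 14 of 148 tested members rose (9.46%, against 0.0985% of all genes) and 0 fell. In 49 of the 148 (33.1%) all 3 libraries at 500 were above all 3 at 20, against 8.65% of all genes tested. In 1 they were all below, against 2.83%. The lists were chosen with earlier results of these data known, so these shares are descriptive and not a test of the lists. In 6 of the 13 lists 0 members passed, the NF-kB subunits among them. The acute phase list had 0 of 10, with a median log2 change of 0.01. Its 3 fibrinogen genes, which A549 cells express strongly, were at 182 ± 4.65 and 179 ± 1.59 CPM for FGA, 217 ± 11.8 and 213 ± 5.01 for FGB, and 131 ± 5.80 and 126 ± 2.09 for FGG. LCN2, a bacteriostatic protein that binds iron carriers, was at 1.35, 0.905 and 1.33 CPM at 20 and 2.38, 1.79 and 2.24 at 500, without overlap, and its change of 0.80 ± 0.24 did not pass (adjusted p = 0.607). SAA1 and SAA2, serum amyloid genes, were too low to test, at no more than 0.0943 and 0.0733 CPM.

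The interferon response list had 0 of 21 called, a median of 0.06, and 2 members at an unadjusted p under 0.05, OAS3 (0.13 ± 0.04) and GBP2 (0.72 ± 0.35). IFIT1 was at 1.73 ± 0.490 and 1.61 ± 0.0680 CPM and ISG15 at 0.764 ± 0.370 and 0.810 ± 0.171. Antigen presentation by MHC class I had 0 of 15 called and 0 at an unadjusted p under 0.05. JAK-STAT3 feedback had 0 of 11 called, and 2 were higher at an unadjusted p under 0.05 (18.2%, against 2.11% of all genes tested). In 4 of the 11 all libraries at 500 were above all at 20 (36.4%, against 8.65%). SOCS3 was at 21.0 ± 1.19 and 22.3 ± 0.754 CPM. The epithelial antimicrobial list had 0 of 2, and its other 11 members were too low to test.

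The other 20 lists, on stress, metabolism, growth and signalling, had 0 of 340 tested members called. Their shares at an unadjusted p under 0.05 were 4.71% higher and 4.71% lower, against 2.11 and 1.73% over all genes. The list of BMP signalling and ID genes, which hold back differentiation, had the lowest median after the mitochondrially encoded genes, −0.15, and 6 of its 12 members were lower at an unadjusted p under 0.05. ID4 was at 14.4 ± 1.27 CPM at 20 and 11.5 ± 0.665 at 500, without overlap, with a change of -0.35 ± 0.09 (adjusted p = 0.151). ID1 (-0.17 ± 0.08), ID2 (-0.13 ± 0.06) and ID3 (-0.17 ± 0.06) overlapped between doses. The mitochondrially encoded genes had a median of −0.16, and −0.00027 with the 2 libraries that stood apart left out.

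**Figure D4:**
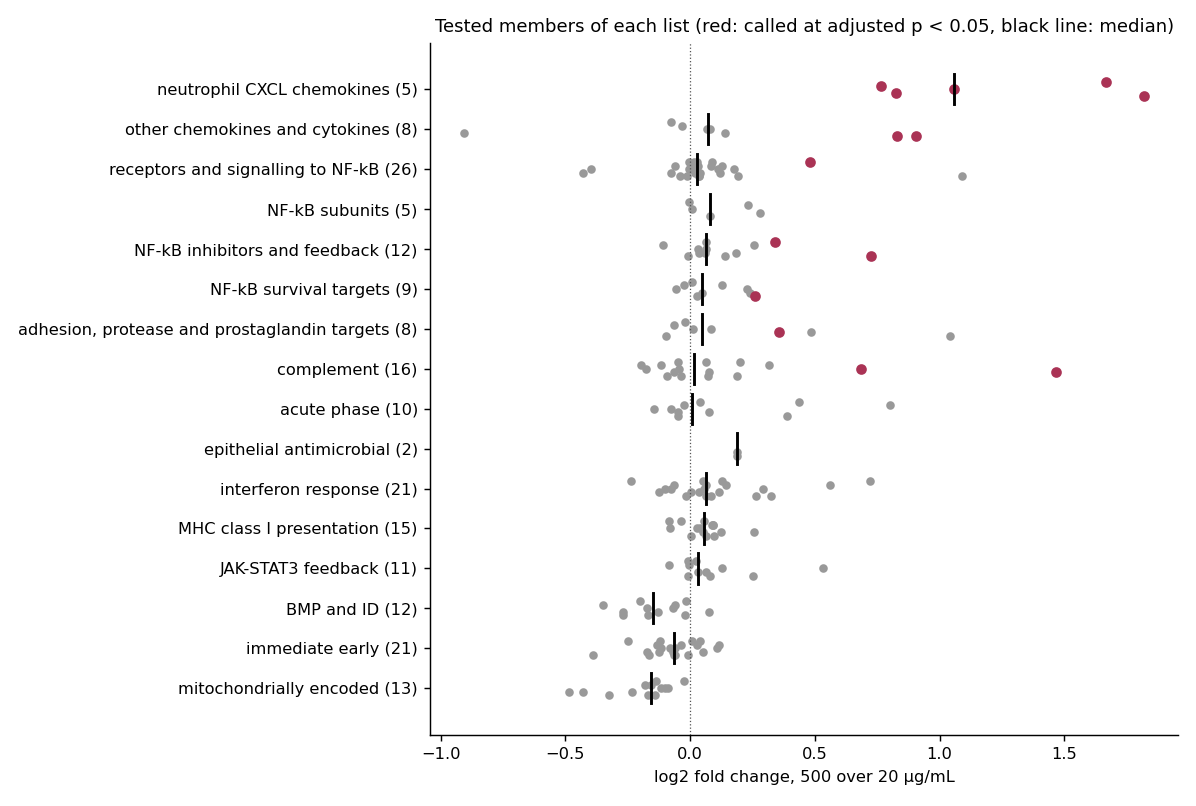
Log2 fold change of 500 over 20 µg/mL (x axis) for every tested member of the 13 inflammatory lists and 3 others (y axis, number tested in brackets); red points were called and black lines are medians. The CXCL list is the one in which every tested member was called, and most members of the other lists lie near 0.

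The 17 genes were called for a rise from 20 to 500, and that choice favours an order with 100 in between. In all 17 genes the mean at 100 lay between the means at 20 and 500. Of these, 16 had all 3 libraries at 500 above all 3 at 100, the exception being CXCL3, and 12 had all 3 at 100 above all 3 at 20. The shares of all genes tested with these orders were not counted. The counts of 17, 16 and 12 therefore have no background beside them and cannot show a graded response. On the log2 scale the step from 20 to 100 made up a median of 33.5% of the rise, and 66.9% in RHBDF2, the highest of the 17. CXCL1 read 2.41, 3.58 and 2.57 CPM at 100, a change of 0.81 ± 0.21 from 20 and of 1.01 ± 0.18 from 100 to 500. CXCL8 read 2.17, 2.12 and 2.05 CPM, with 0.49 ± 0.19 and then 1.18 ± 0.16. CXCL5 read 66.2, 70.7 and 71.7 CPM, with 0.23 ± 0.05 and then 0.54 ± 0.05. The highest of the 3 values of CXCL1, CCL2, CXCL3, IL32 and PDZK1IP1 at 100 was in replicate 2, the library that stood apart.

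In 100 against 20, 0 of 17256 genes passed (0.0% called; edgeR, adjusted p under 0.05), 453 had an unadjusted p under 0.05 (2.63%), and DESeq2 called 0. In 500 against 100, 6 genes rose and 0 fell (0.0348% called). Among them were 5 of the 17: CXCL8 (adjusted p = 3.32e-05), CXCL1 (0.00546), CXCL5 (2.31e-10), C3 (3.32e-05) and C1QTNF1 (0.00325). The sixth was ABTB2, a cytoplasmic protein with ankyrin repeats, at 28.4, 28.9 and 30.2 CPM at 100 and 34.8, 33.8 and 34.9 at 500, a change of 0.23 ± 0.05 (adjusted p = 0.0257), but at 31.9, 32.2 and 28.4 at 20. CXCL5, C3 and CXCL8 kept this call in all 15 alternatives. In fits without 1 library, CXCL1 lost it without 500 replicate 1, 100 replicate 1 or 100 replicate 3, C1QTNF1 without 500 replicate 2 or 100 replicate 3, and ABTB2 without 500 replicate 1, 100 replicate 1, 100 replicate 2 or 500 replicate 3. The difference between the 2 steps was not tested.

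The same contrast was fitted for 3 other hot-water extracts, each against its own libraries at 20. They were Soyo-san and Guibi-tang, decoctions, and Saposhnikoviae Radix, one of the herbs of Okbyeongpung-san. In Soyo-san 15 of the 17 genes rose (0.330% of all genes called higher), in Guibi-tang 15 (0.748%) and in Saposhnikoviae Radix 0 (0.0290%). The median log2 change of the 17 was 0.77 in Okbyeongpung-san, which is the set's own contrast, 1.09 in Soyo-san, 0.86 in Guibi-tang and 0.01 in Saposhnikoviae Radix. The libraries of Okbyeongpung-san and Soyo-san all come after the 31st in the order of library names, where the mitochondrial share is 12.9 to 22.2% against 10.7 to 13.9% before, and those of Saposhnikoviae Radix all come before. Guibi-tang has 3 of these 6 libraries on each side, 2 of them at 500 before and 1 at 20 before, so its dose and this position are partly mixed.

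Against Saposhnikoviae Radix the rise of 5 of the 17 genes was larger in Okbyeongpung-san (interaction in edgeR; 6 of all genes tested were called higher, 0.0348%, and 2 lower, 0.0116%, 0.0464% in all). The 8 calls became 5 without Okbyeongpung-san 500 replicate 1, Saposhnikoviae Radix 20 replicate 2 or 3, or Saposhnikoviae Radix 500 replicate 3. CXCL1 was at 1.19 ± 0.0603 CPM at 20 and 1.14 ± 0.248 at 500 of the herb, a change of -0.11 ± 0.25, so that the difference between extracts was 1.94 ± 0.32 (adjusted p = 0.00128). CXCL8 was at 1.18 ± 0.371 and 1.18 ± 0.355 CPM with the herb, and the difference was 1.72 ± 0.27 (adjusted p = 0.000734). CXCL5 was at 55.6 ± 1.53 and 52.9 ± 1.35 CPM, and the difference was 0.85 ± 0.07 (adjusted p = 8.39e-12). C3 was at 39.6 ± 1.90 and 38.4 ± 2.32 CPM, difference 0.74 ± 0.10 (adjusted p = 2.21e-05). IRAK2 was at 8.21 ± 0.564 and 7.34 ± 0.387 CPM, difference 0.66 ± 0.12 (adjusted p = 0.009), and this call was lost without Okbyeongpung-san 500 replicate 1, Saposhnikoviae Radix 20 replicate 1 or 3, or Saposhnikoviae Radix 500 replicate 3.

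The other 12 differences did not pass, and all 17 estimates were larger in Okbyeongpung-san. The 17 were called on their rise in Okbyeongpung-san, which enters each difference, so this shared direction is favoured by that choice. CCL2 had 0.42 ± 0.18 with the herb and a difference of 0.48 ± 0.24 (95% interval 0.002 to 0.96; adjusted p = 1). TNFAIP3 had 0.01 ± 0.11 with the herb and a difference of 0.72 ± 0.15 (interval 0.41 to 1.02; adjusted p = 0.0539). The sixth gene with a larger change was NPTX1, a neuronal pentraxin, with 0.05 in Okbyeongpung-san and -0.17 with the herb (difference 0.23 ± 0.05; adjusted p = 0.0495). CYP1B1, an oxidising enzyme induced through the aryl hydrocarbon receptor, rose with the herb by 0.47 ± 0.04 and had 0.15 ± 0.04 in Okbyeongpung-san (difference -0.32 ± 0.06; adjusted p = 0.009). SYP, a synaptic vesicle protein, had -0.52 in Okbyeongpung-san and 0.44 with the herb (difference -0.96 ± 0.19; adjusted p = 0.0152). In fits without 1 library, NPTX1 was called only without Saposhnikoviae Radix 20 replicate 1 or Okbyeongpung-san 500 replicate 3. CYP1B1 was not called without Okbyeongpung-san 500 replicate 1, Saposhnikoviae Radix 500 replicate 1 or 20 replicate 2 or 3. SYP was not called without Okbyeongpung-san 500 replicate 2 or 20 replicate 3, or Saposhnikoviae Radix 500 replicate 2 or 3 or 20 replicate 1 or 2. The labels do not give the content of Saposhnikoviae Radix in the decoction, so equal doses of the 2 extracts are not equal doses of the herb.

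Against Soyo-san, 2 of all genes tested had a larger and 3 a smaller change in Okbyeongpung-san (0.0116 and 0.0174%). The 5 became 3 without Okbyeongpung-san 500 replicate 1 or 2, Okbyeongpung-san 20 replicate 2 or Soyo-san 500 replicate 1, and 2 without Okbyeongpung-san 20 replicate 3 or Soyo-san 500 replicate 3. CXCL5 was the one of the 17 among them: it went from 53.9 ± 3.91 to 117 ± 3.01 CPM in Soyo-san, and the rise in Okbyeongpung-san was smaller, with a difference of -0.35 ± 0.07 (adjusted p = 0.0231). That call was lost in 7 of 12 fits that left out 1 library, those without Okbyeongpung-san 500 replicate 1 or 2, 20 replicate 2 or 3, Soyo-san 500 replicate 1 or 3 and 20 replicate 2. CXCL1 had 2.01 ± 0.18 in Soyo-san, and the difference of -0.19 ± 0.28 (95% interval -0.74 to 0.35) did not pass. CXCL8 had 2.29 ± 0.17, with a difference of -0.62 ± 0.25 (interval -1.11 to -0.13; adjusted p = 0.95). C3 had 0.79 ± 0.07 and a difference of -0.10 ± 0.10 (interval -0.30 to 0.09), and CCL2 1.23 ± 0.15 and -0.32 ± 0.23 (interval -0.76 to 0.12), neither of which passed.

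The other 4 genes that differed from Soyo-san were CYP1B1 and TIPARP, both targets of the aryl hydrocarbon receptor, GPX1 and GRAMD1B. CYP1B1 was at 96.5 ± 1.41 CPM at 20 and 109 ± 3.36 at 500 of Okbyeongpung-san, and at 94.8 ± 6.65 and 154 ± 5.06 of Soyo-san (difference -0.54 ± 0.06; adjusted p = 3.45e-07). TIPARP, an ADP-ribosyltransferase that restrains this receptor, was at 37.9 ± 1.09 and 39.5 ± 2.28 CPM, and at 38.2 ± 1.45 and 56.2 ± 3.39 in Soyo-san (difference -0.52 ± 0.08; adjusted p = 0.000198). Within Okbyeongpung-san 0 of 6 tested genes of the list of this receptor's targets passed. GPX1, a glutathione peroxidase, and GRAMD1B, a cholesterol transporter, fell in Soyo-san (-0.50 ± 0.06 and -0.28 ± 0.04) and had -0.03 and -0.00012 in Okbyeongpung-san (differences 0.47 ± 0.09 and 0.28 ± 0.06; adjusted p = 0.0112 and 0.0439). Without Okbyeongpung-san 500 replicate 1, 20 replicate 3 or Soyo-san 500 replicate 3 GPX1 was not called, and GRAMD1B was called only without Okbyeongpung-san 20 replicate 1 or Soyo-san 20 replicate 2 among the 12. CYP1B1 and TIPARP were called in all 12.

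Against Guibi-tang, 15 genes tested had a smaller change in Okbyeongpung-san and 0 a larger one (0.0869% called lower; at an unadjusted p under 0.05, 829 in either direction, 4.8%; DESeq2 called 1 larger and 18 smaller). Among the 17, CXCL5 was called, at 60.6 ± 4.44 and 139 ± 14.6 CPM in Guibi-tang and a difference of -0.36 ± 0.07 (adjusted p = 0.00662; not called without Guibi-tang 500 replicate 1). The rises of CXCL1 (1.70 ± 0.18 in Guibi-tang; difference 0.12 ± 0.27, interval -0.41 to 0.65) and C3 (0.83 ± 0.07; -0.14 ± 0.10, interval -0.34 to 0.05) did not differ past the threshold. Of the other 14, the largest differences were in RRAGD (-1.25), UAP1L1 (-0.97), FBXO32 (-0.87), BRI3 (-0.66), HS1BP3 (-0.64) and PTGES (-0.63). NEU1 encodes a lysosomal enzyme, and RRAGD, RRAGC and FNIP1 act in sensing nutrients at the lysosome. The members described here were picked and do not stand for all 15. SQSTM1, an autophagy receptor, was at 704 ± 42.5 and 739 ± 2.46 CPM in Okbyeongpung-san and at 698 ± 60.6 and 1103 ± 82.1 in Guibi-tang (difference -0.54 ± 0.05; adjusted p = 9.58e-09). NEU1, a lysosomal sialidase, was at 14.4 ± 1.36 and 14.6 ± 1.23 CPM, and at 14.8 ± 1.72 and 23.4 ± 0.908 in Guibi-tang (difference -0.59 ± 0.09; adjusted p = 0.00017). RRAGD, a Rag GTPase that signals amino acids to mTORC1, was at 1.82 ± 0.274 and 1.73 ± 0.308 CPM, and at 1.64 ± 0.137 and 3.85 ± 0.165 in Guibi-tang (difference -1.25 ± 0.24; adjusted p = 0.00691). The call of RRAGD was lost without Okbyeongpung-san 20 replicate 2, and those of SQSTM1 and NEU1 held without any 1 library. In Okbyeongpung-san the list of lysosome and autophagy genes had 0 of 17 tested members called and a median of 0.01. No count of this list is given for Guibi-tang.

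**Figure D5:**
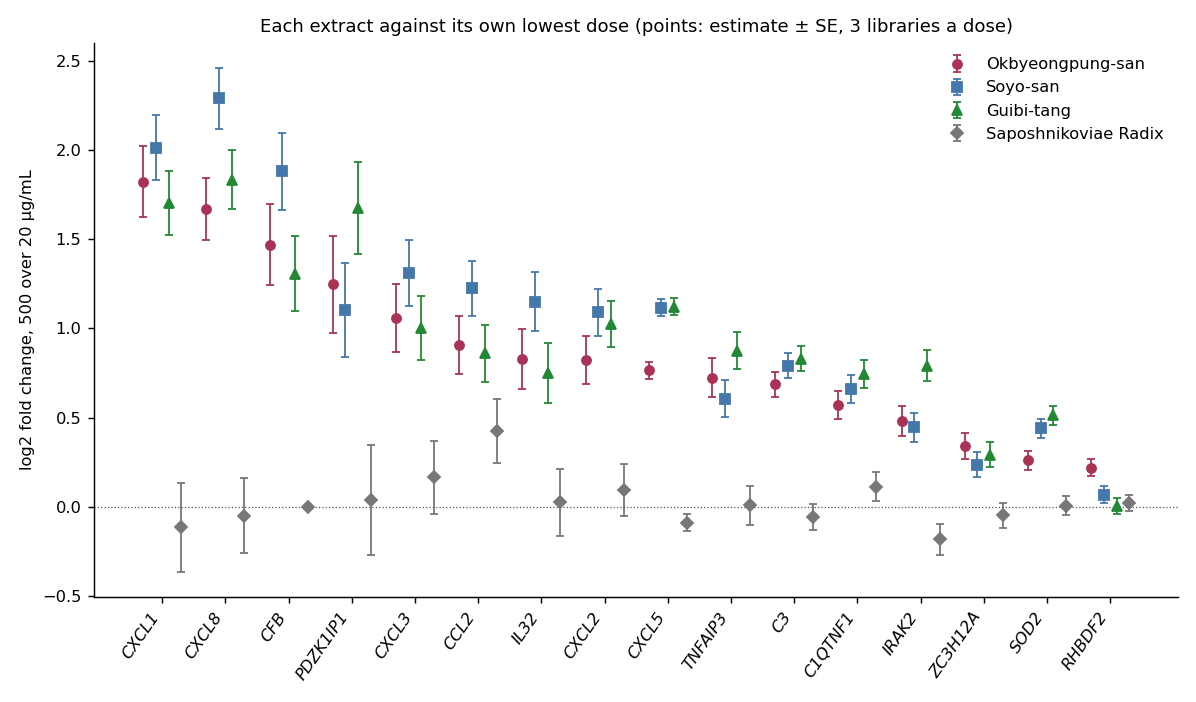
Log2 fold change of 500 over 20 µg/mL (y axis) of 16 genes called in Okbyeongpung-san (x axis), in that extract and in Soyo-san, Guibi-tang and Saposhnikoviae Radix, each against its own libraries at 20; points are estimates and bars are standard errors, with no bar for CFB in Saposhnikoviae Radix, whose change was too close to 0 for one. The points of the first 3 extracts lie together above 0 for most genes. Those of Saposhnikoviae Radix lie within -0.183 to 0.424, with CCL2 at 0.42.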

How the data were processed

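RNA of A549 cells was sequenced as 100 bp paired-end reads from directional libraries, per the labels' protocols. Reads were handled with FastQC 0.11.9, Trim Galore 0.6.5, STAR 2.7.3a and RSEM 1.3.3 on hg38, per the submitters' processing notes. The authors deposited 60 columns of RSEM expected counts over 60675 genes. The sources used here do not give the annotation release or the strand setting of the counting. Values were rounded to whole counts (10.5% were not whole). CPM are rounded counts per 1000000 counts of the library. In R 4.3.3, edgeR 4.0.16 fitted 1 quasi-likelihood model (TMM factors, filterByExpr, group means, no covariate) to the 57 libraries of the 19 groups with 3 libraries, and 17256 genes were tested. Soshiho-tang, with 1 library a dose, was left out. The vehicle and the other extracts entered only the shared estimate of spread. Calls are Benjamini-Hochberg adjusted p under 0.05 over all genes tested, and a standard error is the log2 change divided by the root of F. Intervals of differences are the estimate ± 1.96 standard errors. DESeq2 1.42.0 was an alternative.

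The genes named are those called, the markers CXCL1, CCL2 and C3, members of the inflammatory lists, and for other contrasts the genes with the highest and lowest changes among calls at 5 CPM or more without overlap between doses, up to 5 each way. ANKRD1 and genes whose doses overlapped (such as TIPARP, GPX1, GRAMD1B, NPTX1, SYP, NEU1 and RRAGD) were named after their values were seen. The comparison, the members and the 33 gene lists were chosen with earlier results of these data known. Replicate numbers were not used as pairs in the main model. The wortmannin control and the ethanol extracts that the series describes were not analysed here, and values of a few genes are not reported here.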

Additional observations from a re-analysis of the deposited data

Results flagged for a closer look

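The change from 20 to 500 µg/mL differed between Okbyeongpung-san and another extract in the genes below, by the interaction test in edgeR (adjusted p under 0.05 over all genes). Values are log2 differences, Okbyeongpung-san minus the other extract. Against Soyo-san they were -0.54 in CYP1B1, -0.52 in TIPARP, -0.35 in CXCL5, 0.28 in GRAMD1B and 0.47 in GPX1. CYP1B1 and TIPARP were called in all 19 alternatives, CXCL5 in 10, GPX1 in 14 and GRAMD1B in 6.

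Against Guibi-tang all 15 were negative, among them -1.25 in RRAGD, -0.97 in UAP1L1, -0.87 in FBXO32, -0.66 in BRI3, -0.64 in HS1BP3, -0.63 in PTGES, -0.59 in NEU1, -0.57 in FNIP1, -0.56 in GNPDA1, -0.54 in SQSTM1, -0.49 in PLIN2, -0.42 in RRAGC, -0.36 in CXCL5 and -0.29 in VAT1. BRI3, HS1BP3, PTGES, FNIP1 and SQSTM1 were called in all 18 alternatives. The Guibi-tang libraries lie on both sides of the 31st library, and the part of that position in these differences was not tested.

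Against Saposhnikoviae Radix the differences were -0.96 in SYP, -0.32 in CYP1B1, 0.23 in NPTX1, 0.66 in IRAK2, 0.74 in C3, 0.85 in CXCL5, 1.72 in CXCL8 and 1.94 in CXCL1. CXCL1, CXCL5 and C3 were called in all 18 alternatives and CXCL8 in 17. NPTX1 was called in 5 and SYP in 11.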

How the results depend on the processing

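All 17 genes kept a positive change in all 15 alternatives, 2 of them chosen after the data were seen, and 9 of the 17 kept their call in all 15, among them CXCL1, CXCL2, CXCL5, CXCL8, C3, CFB, TNFAIP3 and C1QTNF1. The number of genes called in 500 against 20 was 17 with DESeq2's size factors in edgeR or without mitochondrially encoded genes, 21 with DESeq2, 16 with only the groups compared, 13 with only libraries after the 31st, 14 without the 2 libraries that stood apart and 10 to 14 when 1 library was left out. It was 11 with only the 9 libraries of the decoction and 93 (45 higher, 48 lower, 16 of the 17 among them) with no filter on low counts. Of these 93, 90 were genes also tested in the main fit, so few were genes that the filter had removed. The cause was not tested. Replicate numbers did not pair the 9 libraries of the decoction (correlation of same-numbered deviations −0.007 to 0.054). Pairing in the other extracts was not examined. With the replicate block 26 genes were called (24 higher, 2 lower, NUCKS1 and PRSS23, named after their values were seen).

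In 100 against 20, no filter gave 56 calls and every fit without 1 library gave 0. In 500 against 100 the 6 calls became 121 with no filter, 3 with only the groups compared, 3 with only the 9 libraries, and 4 to 5 without 1 library. For the difference from Soyo-san, 5 became 78 with no filter, 2 with only the groups compared, 2 with only libraries after the 31st, and 2 to 6 without 1 library. For Guibi-tang, 15 became 115 with no filter, 36 with the replicate block, 6 with only the groups compared, and 10 to 21 without 1 library. For Saposhnikoviae Radix, 8 became 70 with no filter, 15 with the replicate block, 4 with only the groups compared, and 5 to 8 without 1 library. Most of these calls with no filter were genes also tested in the main fit. They made up 55 of the 56, 117 of the 121, 74 of the 78, 112 of the 115 and 68 of the 70. A fit that leaves a dose with 2 libraries takes its spread from all groups. List medians moved past the spread of replicates in 4 of 239 values, 3 of complement and 1 of other chemokines. At this depth 15 of the other chemokines and cytokines were too low to test.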
